A study of Mus musculus with 4 samples.

Results

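The tumour necrosis factor (TNF) superfamily and the proteins that carry its signal were followed in the small intestine of CFLARs Tg mice, with wild-type mice as the comparison. Members were taken by gene symbol: every Tnfsf and Tnfrsf gene, the ligand and receptor genes with older names (Tnf, Lta, Ltb, Ltbr, Cd40, Cd40lg, Fas, Fasl, Cd27, Cd70 and Ngfr), and the genes of the receptor-bound TRAF adaptors and of the ubiquitin ligases cIAP1 and cIAP2 (Birc2 and Birc3). A probe set with 1 gene symbol was found for 46 members, among 19938 genes in all: 15 ligands, 25 receptors and 6 adaptors or ligases. Tnfsf12, Tnfsf13 and Tnfsfm13 share probe sets with other symbols, and Traf3 was not analysed here.

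The CFLARs Tg group held 2 arrays, titled XCFX and XCFY, and the wild-type group held 2 arrays, titled XX and XY. All mice were of the C57BL/6 strain, and total RNA of the small intestine was hybridised to 1 Affymetrix array per sample. The transgene encodes the short form of cFLIP, the caspase-8 regulator made from Cflar. The sources used here do not give its promoter, the number of founder lines, the age of the mice or the number of animals behind an array. The p-values therefore measure the spread between these samples, which may be technical in part. Each group held 1 XX-type and 1 XY-type array, so this spread also includes any difference by sex.

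TNF superfamily ligands are mostly made as trimers on the cell surface, and several are shed from it. They bind receptors that fall broadly into those with a cytoplasmic death domain, which can recruit TRADD or FADD and caspase-8, and those that bind TRAF proteins and lead to NF-kB. When caspase-8 activity is blocked, signalling from a TNF receptor can pass through RIPK1 and RIPK3 to MLKL and end in necroptosis, a lytic form of cell death. In the intestine, TNF is known as a driver of inflammation.

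Over all genes fitted the arrays of a genotype differed with an SD of 0.231 (CFLARs Tg) and 0.125 (wild-type) in their autosomal log2 differences, and Xist and the Y-linked genes followed the XX and XY titles. Genes that were off by sex (Xist in XY-type arrays, Y-linked genes in XX-type arrays) read 5.13 to 6.78, which served as a scale of background. The 9 epithelial markers all read above this range, and their summed signal (log2) was 15.80 and 15.43 in CFLARs Tg, against 15.78 and 15.80 in wild-type. They did not move alike: Krt20 rose by 1.35 and Krt8 by 0.33, while 7 did not pass, with differences from -1.49 for Lct and -0.72 for Fabp2 to 0.01 for Cdx1. Lct read 12.57 and 11.03 in CFLARs Tg and 13.27 and 13.32 in wild-type, lowest on the XCFY array. The summed signal of 10 neutrophil markers (log2) was 11.66 and 12.95 in CFLARs Tg, against 10.29 and 10.39 in wild-type, and 6 of the 7 fitted ones rose. All 6 had passed the filter on low values only through their CFLARs Tg readings, so this count was largely fixed by the filter, and with no filter 5 of the 10 rose. That of 9 monocyte and macrophage markers was 12.54 and 13.04 in CFLARs Tg, against 12.31 and 12.30 in wild-type, and 0 of them passed (limma; 5 had an unadjusted p under 0.05). The sums of 9 T and innate lymphoid markers were 10.65 and 10.66 in CFLARs Tg and 10.74 and 10.66 in wild-type. Those of 5 B cell markers were 9.67 and 9.61 in CFLARs Tg and 9.52 and 9.57 in wild-type. Both lay closer together, but 7 of the 9 and 4 of the 5 markers lay below the filter. Their low readings limit what these sums can show. With no filter 0 markers of either list rose, and Il7r fell by 0.52. Il7r read 7.19 on both CFLARs Tg arrays and 7.74 and 7.67 in wild-type. Albumin (Alb), a liver transcript, read 11.20 and 6.57 in CFLARs Tg and 11.47 and 12.72 in wild-type, so the XCFY array stood apart from the others in it. The sum of 6 liver and pancreas markers, with Alb among them, was 12.81 and 11.76 in CFLARs Tg and 13.24 and 13.975 in wild-type. Of these, Ttr fell by 0.84 (limma adjusted p = 0.0360) and 5 did not pass. Cpa1 read 8.26 and 8.38 in CFLARs Tg and 8.43 and 10.515 in wild-type, so there the XY array stood apart. In these bulk samples, fewer cells of a type and less RNA per cell cannot be told apart, and the part of infiltrating cells in the results below was not tested.

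Of the 46 members, 31 passed a filter on low values and were fitted. Among these, 8 rose and 1 fell in CFLARs Tg (limma, adjusted p under 0.05), while 8.44% of all fitted genes rose and 10.9% fell. Tnf and Tnfsf15 passed the filter only through their CFLARs Tg readings, and without them 6 of 29 rose. When all 46 members were fitted without a filter, the same 8 rose and the same 1 fell, against 5.31% and 6.70% of all 19938 genes. The median difference of the 46 members was 0.09 on the log2 scale, against 0.00 for all genes. Both CFLARs Tg arrays lay above both wild-type arrays in 18 of the 31 fitted members and below them in 5, against 32.0% and 37.6% of all fitted genes. These calls needed both wild-type arrays. Without wild-type replicate 1 or without replicate 2, 0 members passed (limma), 9 and 8 members had an unadjusted p under 0.05, and 42 and 40 of all 13956 genes passed. The spread then came from the CFLARs Tg pair alone, and the lone array was assumed to vary like it. Leaving out a CFLARs Tg array did the reverse, with the spread taken from the closer wild-type pair alone: without replicate 1 (XCFX) 12 members rose and 6 fell, and without replicate 2 (XCFY) 13 rose and 1 fell, in fits that called 47% and 32.4% of all genes. A call made only in one of these fits therefore carries little weight, and below only the differences are given from them. The plot of all members' differences shows Tnfsf9 and Tnfrsf23 among the members that rose, with differences of like size that did not pass.

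**Figure D1:**
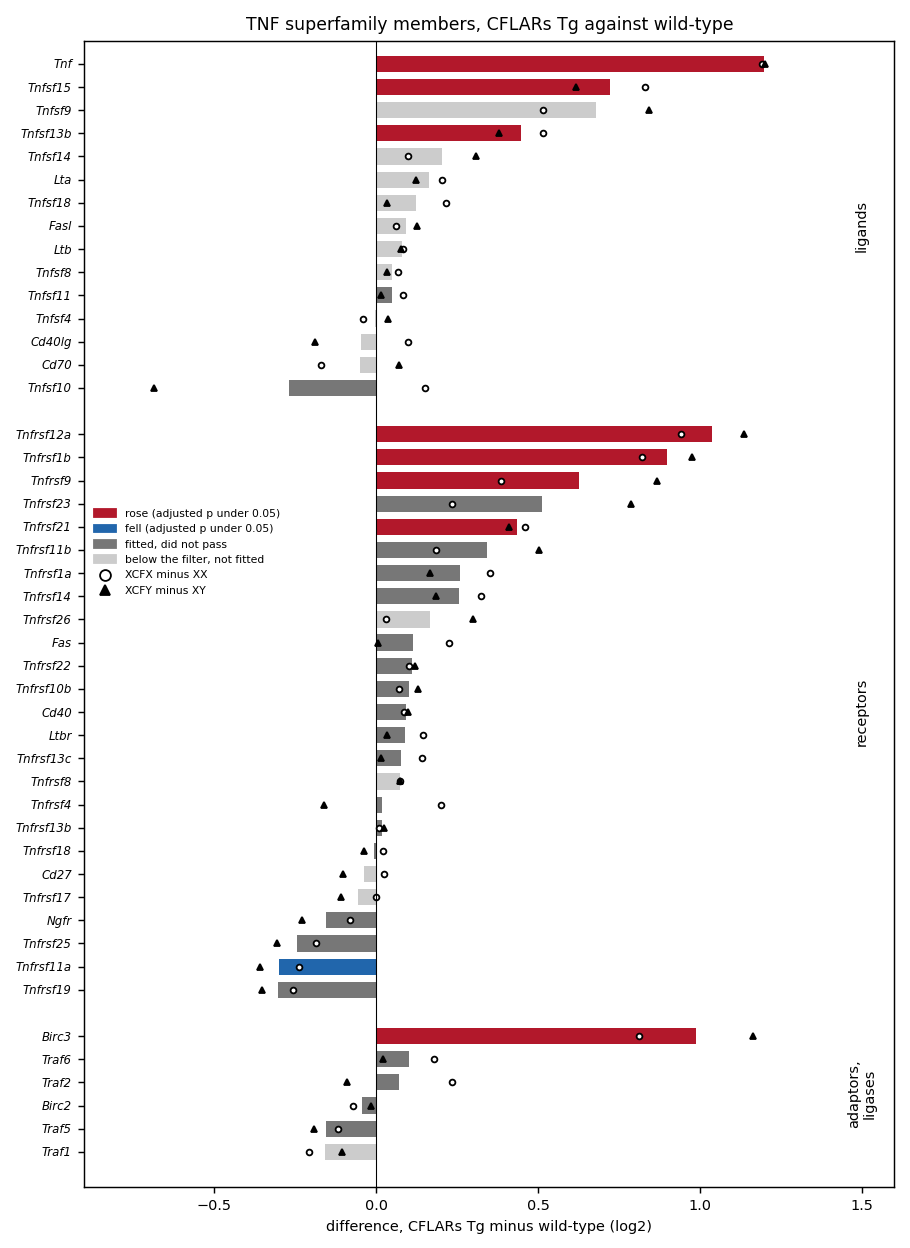
Difference between CFLARs Tg and wild-type (log2, x axis) for each of the 46 members, grouped into ligands, receptors, and adaptors or ligases. Bars give the mean difference, circles XCFX minus XX and triangles XCFY minus XY; Tnf has the longest bar at 1.20, and Tnfsf10 is the fitted ligand whose symbols lie on both sides of 0.

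The promoters of 4 members are printed because these genes differ in what they did: Tnf and Tnfrsf9 rose, Birc3 rose beside a neighbour that did not pass, and Ltb lies next to Tnf. Each is the stretch of 250 bases before the start of the gene in RefSeq's annotation of GRCm38.p6, read 5′ to 3′ on the gene's strand. Capitals mark matches to the NF-kB consensus, to TGANTCA (the site of AP-1) and to TATAAA (the TATA box), searched on both strands, with overlapping matches joined.
Tnf, chr17:35202008-35202257, minus strand: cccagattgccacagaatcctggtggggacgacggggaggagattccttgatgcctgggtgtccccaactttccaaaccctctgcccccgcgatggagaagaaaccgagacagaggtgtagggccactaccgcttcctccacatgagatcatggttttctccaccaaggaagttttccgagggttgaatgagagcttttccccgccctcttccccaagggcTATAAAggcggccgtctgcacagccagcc
Ltb, chr17:35194257-35194506, plus strand: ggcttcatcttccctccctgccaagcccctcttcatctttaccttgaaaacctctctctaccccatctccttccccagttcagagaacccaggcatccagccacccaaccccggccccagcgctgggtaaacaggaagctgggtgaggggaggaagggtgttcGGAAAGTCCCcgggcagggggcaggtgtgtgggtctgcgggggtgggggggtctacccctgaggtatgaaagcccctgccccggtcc
Tnfrsf9, chr4:150927749-150927998, plus strand: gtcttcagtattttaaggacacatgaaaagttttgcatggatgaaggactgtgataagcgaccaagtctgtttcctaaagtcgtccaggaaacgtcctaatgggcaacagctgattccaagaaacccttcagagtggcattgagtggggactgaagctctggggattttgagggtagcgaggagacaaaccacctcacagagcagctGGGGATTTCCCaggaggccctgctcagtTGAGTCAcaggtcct
Birc3, chr9:7873171-7873420, minus strand: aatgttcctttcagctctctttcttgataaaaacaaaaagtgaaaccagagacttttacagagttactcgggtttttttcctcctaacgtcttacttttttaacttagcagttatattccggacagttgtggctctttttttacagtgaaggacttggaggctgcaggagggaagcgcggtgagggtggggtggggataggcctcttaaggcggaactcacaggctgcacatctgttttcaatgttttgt
The Tnf window holds a TATA box between 29 and 24 bases before the start. Tnfrsf9 has 2 listed starts, and the start with more matches is shown. In its window 2 overlapping NF-kB matches lie between 43 and 33 bases before the start, and a TGANTCA match lies between 15 and 9 bases before it. The window at the other start of Tnfrsf9 holds no match to the 3 motifs. Ltb holds 1 NF-kB match, and the Birc3 window holds none of the 3 motifs. Of the 37 members found in the promoter table, 3 had an NF-kB match (Ltb, Tnfrsf8 and Tnfrsf9), or 8.11%, against 4.46% of all 27025 genes. For TGANTCA the shares were 13.5% of members and 7.82% of all genes, and for TATAAA 16.2% and 14.3%. These matches describe the letters of these windows and were not tested as binding sites.

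Among the ligands, Tnf, Tnfsf15 and Tnfsf13b rose. They are 3 of the 5 fitted, or 1 of 3 without Tnf and Tnfsf15, which passed the filter only through CFLARs Tg, and 3 of all 15 with no filter, beside 8.44% of all fitted genes and 5.31% of all genes. Tnf, the founding ligand of the family, read 8.24 and 8.42 in the XCFX and XCFY arrays and 7.05 and 7.22 in the XX and XY arrays (log2). Both CFLARs Tg arrays lay over 1 log2 unit above the wild-type array of the same title type. The difference was 1.20, or 2.29-fold (SE 0.10, limma adjusted p = 0.0133), and it was nearly the same in the XX-type pair, at 1.19, as in the XY-type pair, at 1.20. Because the wild-type readings lay close to background, this fold may understate the change in RNA.

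Tnfsf15 encodes TL1A, a ligand known to costimulate T cells and innate lymphoid cells in the gut. It read 8.15 and 7.998 in CFLARs Tg and 7.32 and 7.38 in wild-type. The groups did not overlap, and the difference was 0.72, or 1.65-fold (SE 0.08, limma adjusted p = 0.0173). Tnfsf13b encodes BAFF, the survival factor of B cells, and read 8.20 and 8.16 in CFLARs Tg and 7.69 and 7.78 in wild-type. It rose by 0.45, or 1.36-fold (SE 0.06, limma adjusted p = 0.0231). Here too the groups did not overlap.

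Tnfsf9, the gene of 4-1BB ligand, lay just under the filter, with readings of 7.56 and 7.99 in CFLARs Tg and 7.04 and 7.15 in wild-type. Its difference of 0.68 is close in size to that of Tnfsf15, but it did not pass without the filter (SE 0.15, limma adjusted p = 0.0531).

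Tnfsf10, which encodes the death ligand TRAIL, differed between the CFLARs Tg arrays more than any other fitted member. It read 9.47 (XCFX) and 8.55 (XCFY) in CFLARs Tg, against 9.32 and 9.23 in wild-type. The XCFX reading lay above both wild-type readings and the XCFY reading below both. The mean difference was -0.27 with a 95% interval from -1.08 to 0.54 (limma adjusted p = 0.567). With XCFY as the only CFLARs Tg array the difference was -0.73, and with XCFX as the only one it was 0.19. Tnfsf11, the gene of RANKL, differed by 0.05 (SE 0.06, limma adjusted p = 0.583).

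The other ligand genes were low. Lta, which encodes lymphotoxin alpha, read 7.14 and 7.05 in CFLARs Tg and 6.94 and 6.93 in wild-type, and Ltb, its membrane-anchored partner, read 7.34 and 7.34 in CFLARs Tg and 7.26 and 7.27 in wild-type. Tnfsf14, the gene of LIGHT, read 6.69 and 6.90 in CFLARs Tg, and 6.59 on both wild-type arrays. In these 3 genes the CFLARs Tg readings lay above the wild-type ones, by 0.16, 0.08 and 0.20 on average, and none passed without the filter (limma, adjusted p from 0.164 for Lta to 0.416 for Ltb; unadjusted p from 0.0511 to 0.219). Fasl, the gene of the Fas ligand, read 6.504 and 6.44 in CFLARs Tg and 6.44 and 6.32 in wild-type, within the range of background. The same held for the group means of Tnfsf4, Tnfsf8, Tnfsf18 and Cd40lg, and Cd70 read 6.61 and 6.85 in CFLARs Tg and 6.78 on both wild-type arrays.

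Among the 21 fitted receptors, 4 rose and 1 fell, which is 19% and 4.76%, beside 8.44% and 10.9% of all fitted genes. The 4 that rose were Tnfrsf12a, Tnfrsf1b, Tnfrsf9 and Tnfrsf21. Tnfrsf12a encodes Fn14, the receptor of TWEAK, which is known as a gene of injured and regenerating epithelium. It read 10.33 and 10.39 in CFLARs Tg and 9.38 and 9.26 in wild-type. The arrays of each genotype lay close together and the genotypes far apart, with a difference of 1.04, or 2.05-fold (SE 0.07). Its limma adjusted p of 0.00925 was the lowest of all members. The gene of its ligand, Tnfsf12, was not analysed here.

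The genes of the 2 receptors of TNF had unequal differences from wild-type. Tnfrsf1b encodes TNFR2, which binds TRAF2 and has no death domain, and is known for its expression on leukocytes. It read 9.40 and 9.65 in CFLARs Tg and 8.58 and 8.67 in wild-type, a difference of 0.90, or 1.86-fold (SE 0.10, limma adjusted p = 0.0179). The CFLARs Tg arrays lay above the wild-type ones, with XCFY the higher, and the part of leukocytes in this rise was not tested. Tnfrsf1a encodes TNFR1, the widely expressed receptor with a death domain, and read 11.19 and 11.03 in CFLARs Tg and 10.84 and 10.86 in wild-type. Its arrays did not overlap either, but the difference of 0.26 did not pass (SE 0.08, 95% interval 0.06 to 0.46, limma adjusted p = 0.0786). With XCFY as the only CFLARs Tg array its difference was 0.18, and with XCFX as the only one it was 0.34. The intervals of the 2 receptors, 0.63 to 1.16 for Tnfrsf1b and 0.06 to 0.46 for Tnfrsf1a, did not overlap. The difference between them was not tested.

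Tnfrsf9 encodes 4-1BB, a costimulatory receptor of activated lymphocytes that is also found on other leukocytes. It read 8.84 and 9.20 in CFLARs Tg and 8.45 and 8.34 in wild-type, a difference of 0.63, or 1.54-fold (SE 0.14, limma adjusted p = 0.0433). The rise was larger in the XY-type pair (0.87) than in the XX-type pair (0.39), a contrast that was not tested. Tnfrsf21, the gene of death receptor 6, read 10.42 and 10.52 in CFLARs Tg and 9.96 and 10.11 in wild-type. It rose by 0.44, or 1.35-fold (SE 0.08, limma adjusted p = 0.0319), by a like amount in both pairs.

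Tnfrsf11a, which encodes RANK, the receptor of RANKL, was the member that fell, a call that was lost with title type as a block. RANK is known in the gut for its part in the formation of M cells, the antigen-sampling cells of the epithelium over lymphoid tissue. Tnfrsf11a read 10.52 and 10.45 in CFLARs Tg and 10.76 and 10.80 in wild-type. Both CFLARs Tg arrays were lower, and the fall was small, with a difference of -0.30 (1.23-fold, SE 0.06, limma adjusted p = 0.0377, and 0.0511 with title type as a block). Tnfrsf19, the gene of TROY, a receptor known as a marker of intestinal stem cells, read 8.45 and 8.24 in CFLARs Tg and 8.70 and 8.59 in wild-type. Its difference of -0.30 did not pass (SE 0.09, limma adjusted p = 0.0840), though it did with title type as a block (adjusted p = 0.0467).

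**Figure D2:**
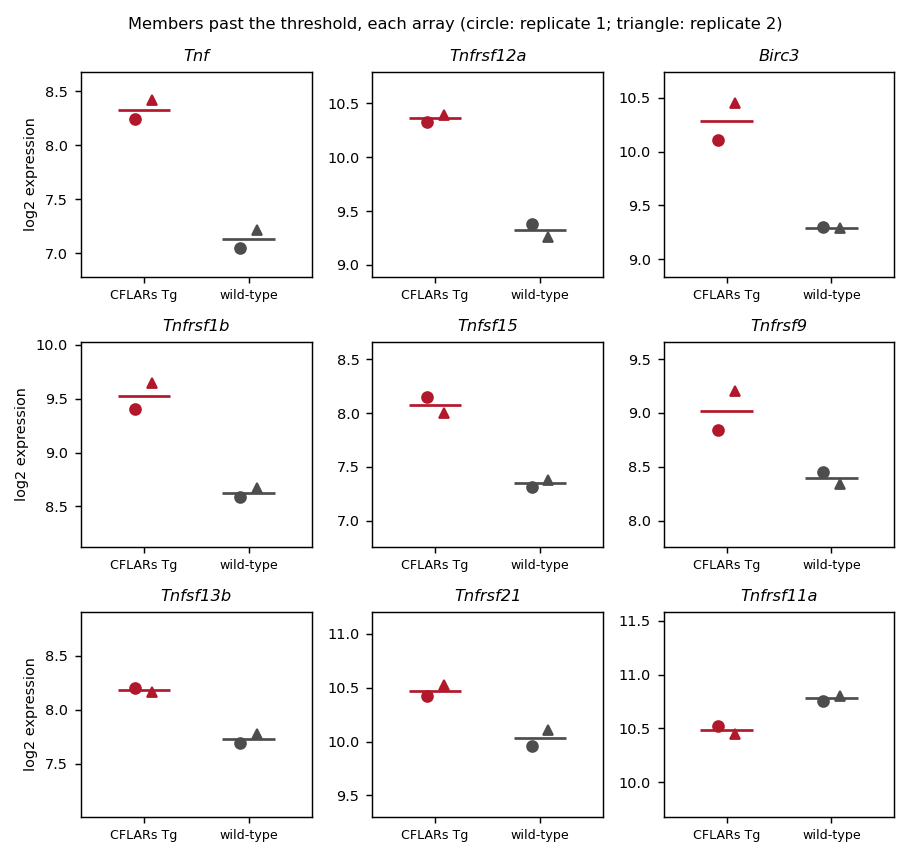
Log2 expression (y axis, the same span in each panel) of the 9 members past the threshold on each array, CFLARs Tg at left and wild-type at right, with the group mean as a line. In every panel the 2 genotypes do not overlap; Tnfrsf11a is the panel in which CFLARs Tg lies lower.

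Of 6 fitted receptors with a death domain 1 rose, Tnfrsf21, beside 8.44% of all fitted genes, and their median difference was 0.11, against -0.01 for all fitted genes. Fas read 8.49 and 8.17 in CFLARs Tg and 8.27 and 8.17 in wild-type, so that the groups overlapped. Its difference was 0.11 with a 95% interval from -0.21 to 0.44 (limma adjusted p = 0.537). With XCFX as the only CFLARs Tg array it was 0.27, and with XCFY as the only one it was -0.05.

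Tnfrsf10b, which encodes the mouse TRAIL receptor with a death domain, read 9.32 and 9.35 in CFLARs Tg and 9.24 and 9.22 in wild-type. The groups did not overlap, yet the difference was 0.10 (SE 0.06, limma adjusted p = 0.249), with an interval that reached up to 0.25. Tnfrsf25, the receptor of TL1A, and Ngfr, the p75 neurotrophin receptor, lay lower on both CFLARs Tg arrays, with differences of -0.25 and -0.15, and neither passed (limma adjusted p = 0.100 and 0.246).

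The decoy receptors bind ligands without passing on a death signal. Of the 3 fitted 0 rose, beside 8.44% of all fitted genes. Tnfrsf23, which encodes a mouse decoy receptor of TRAIL, read 7.94 and 8.52 in CFLARs Tg and 7.70 and 7.73 in wild-type. Its CFLARs Tg arrays were well apart, and the difference of 0.51 did not pass (SE 0.20, limma adjusted p = 0.134). Tnfrsf22, a neighbouring decoy receptor gene, differed by 0.11 (SE 0.07, limma adjusted p = 0.281). Tnfrsf11b, the gene of osteoprotegerin, the secreted decoy of RANKL, read 9.77 and 10.10 in CFLARs Tg and 9.59 and 9.601 in wild-type, a difference of 0.34 that did not pass (SE 0.12, limma adjusted p = 0.111). With XCFY as the only CFLARs Tg array the differences were 0.80 for Tnfrsf23 and 0.51 for Tnfrsf11b, and with XCFX as the only one they were 0.22 and 0.18.

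Of the remaining fitted receptors, Tnfrsf14, the gene of HVEM, differed by 0.26 with CFLARs Tg above wild-type on all arrays (SE 0.07, limma adjusted p = 0.0577). Ltbr, the receptor of lymphotoxin, read 9.86 and 9.77 in CFLARs Tg and 9.71 and 9.73 in wild-type (difference 0.09, limma adjusted p = 0.347). Cd40, Tnfrsf4, Tnfrsf13b, Tnfrsf13c and Tnfrsf18 differed by -0.01 to 0.09, and none passed (limma adjusted p from 0.270 to 0.946). Cd27, Tnfrsf8, Tnfrsf17 and Tnfrsf26 lay below the filter, with readings from 6.59 to 7.10 and differences from -0.05 to 0.17.

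Ligands were set beside known receptors in 19 pairs, without Lta or the TRAIL decoy receptors. Some genes stand in more than 1 pair, and 8 pairs had both genes fitted. In 3 of these 8, those of Tnf and Tnfsf15, the ligand was fitted only because its CFLARs Tg readings lifted it past the filter. In 1 of these 8 pairs, Tnf with Tnfrsf1b, ligand and receptor both rose, and in 4 the ligand alone was called: Tnf with Tnfrsf1a, Tnfsf15 with Tnfrsf25, and Tnfsf13b with Tnfrsf13b and with Tnfrsf13c. Among all fitted genes 8.44% rose. The BAFF receptor genes Tnfrsf13b and Tnfrsf13c differed by 0.02 and 0.08, beside 0.45 for the ligand. The 4-1BB pair had similar differences, 0.68 for Tnfsf9 and 0.63 for Tnfrsf9. In the RANK axis the ligand differed by 0.05, the receptor fell by 0.30 and the decoy differed by 0.34.

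**Figure D3:**
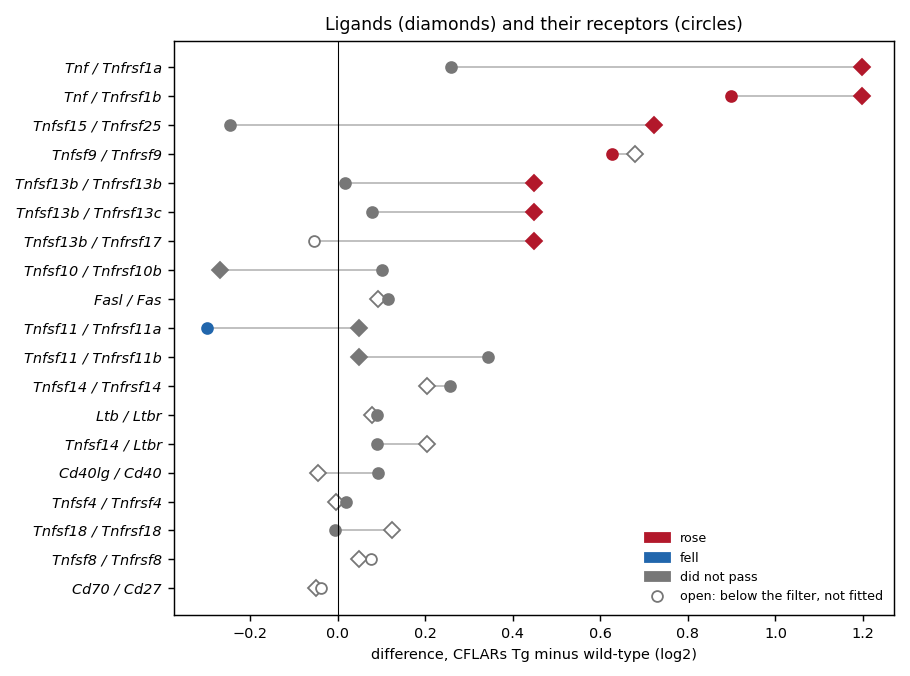
Difference between CFLARs Tg and wild-type (log2, x axis) of the ligand (diamond) and the receptor (circle) in 19 ligand and receptor pairs, joined by a line. Tnf with Tnfrsf1b is the pair with both symbols red; the Tnfsf15 and Tnfrsf25 symbols lie on opposite sides of 0, at 0.72 and -0.25.

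Among the adaptors and ligases, Birc3 rose. It encodes cIAP2, a ubiquitin ligase that joins the receptor complex through TRAF2 and is itself known as an NF-kB target. Birc3 read 10.11 and 10.45 in CFLARs Tg and 9.30 and 9.29 in wild-type. The difference was 0.99, or 1.98-fold (SE 0.12, limma adjusted p = 0.0197), and the XCFY array was the higher of the CFLARs Tg arrays. Birc2, which encodes the related ligase cIAP1, read 9.09 and 9.01 in CFLARs Tg and 9.16 and 9.02 in wild-type. The groups overlapped, with a difference of -0.04 and a 95% interval from -0.24 to 0.16 (limma adjusted p = 0.717).

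Traf2, the adaptor that brings the cIAP proteins to TNF receptors, read 9.23 and 9.01 in CFLARs Tg and 8.99 and 9.10 in wild-type. The readings overlapped, and the difference was 0.07 (95% interval -0.18 to 0.33, limma adjusted p = 0.626). Traf1, known as an NF-kB target in lymphocytes, read 6.596 and 6.51 in CFLARs Tg and 6.80 and 6.62 in wild-type, near or within the range of background. Traf6, an adaptor of CD40 and RANK, differed by 0.10 and Traf5 by -0.15, and neither passed (limma adjusted p = 0.331 and 0.125).

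Several members are neighbours on a chromosome with no other protein-coding gene of the RefSeq table between them, and in these groups the differences were unequal. On chromosome 17, Tnf lies between Ltb and Lta and rose by 1.20, beside differences of 0.08 and 0.16. On chromosome 9, Birc3 rose by 0.99 next to Birc2 with -0.04. On chromosome 4, Tnfsf15 rose by 0.72 next to Tnfsf8 with 0.05, and Tnfrsf1b rose by 0.90 next to Tnfrsf8 with 0.08. The low readings of Lta, Ltb, Tnfsf8 and Tnfrsf8 limit how much of a change could be seen in them. In the cluster of Tnfsf9, Cd70 and Tnfsf14 the differences were 0.68, -0.05 and 0.20, and in that of Tnfrsf26, Tnfrsf22 and Tnfrsf23 they were 0.17, 0.11 and 0.51. The differences between neighbours were not tested.

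**Figure D4:**
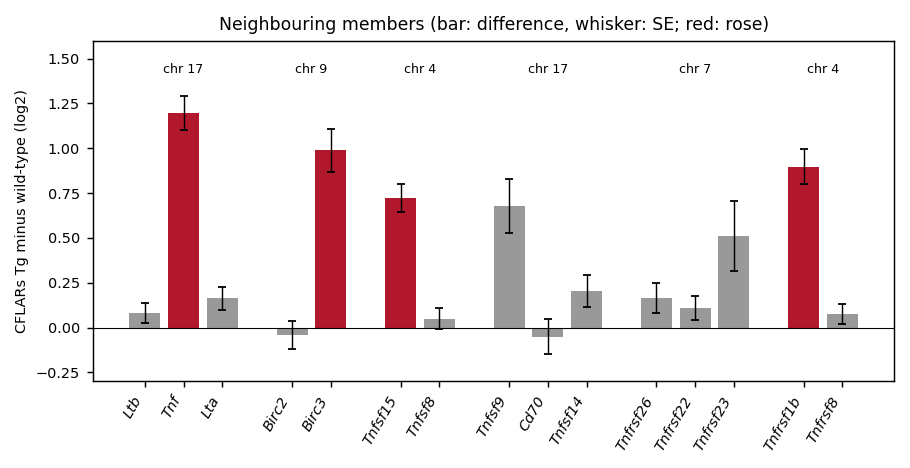
Difference between CFLARs Tg and wild-type (log2, y axis) of members that lie next to each other, with the chromosome above each group; whiskers are the SE of the fit without a filter, and red bars rose. In the first group Tnf stands at 1.20 between Ltb at 0.08 and Lta at 0.16.

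Genes that act downstream of the receptors were counted from fixed lists outside the family. The lists, like the members, were chosen with earlier results of these data known, so their counts are a description. Of 14 fitted genes of the receptor complex and cell death machinery, 4 rose, or 28.6%, beside 8.44% of all fitted genes. They were Ripk3, the kinase of necroptosis, by 1.15 (SE 0.09), Tradd, the adaptor of TNFR1, and Casp8 by 0.37 each, and Tank, a TRAF-binding protein, by 0.35. Tradd passed narrowly (limma adjusted p = 0.0493). With no filter it did not pass, and 3 genes of the list rose, beside 5.31% of all genes. The median of this list was 0.03, against -0.01 for all fitted genes. Mlkl, on the same route as Ripk3, read 9.69 and 9.18 in CFLARs Tg and 8.775 and 8.94 in wild-type. Its difference of 0.58 did not pass (SE 0.18, limma adjusted p = 0.0896). Fadd, the adaptor that links death receptors to caspase-8, read 9.05 and 8.997 in CFLARs Tg and 9.30 and 9.25 in wild-type. It did not pass (difference -0.25, limma adjusted p = 0.05003). Cflar read 9.49 and 9.30 in CFLARs Tg and 9.34 and 9.28 in wild-type (limma adjusted p = 0.498). The stretch of Cflar that these probe sets read, and whether the transgene holds it, is unknown here, so this reading is no check of the labels.

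Of 17 fitted kinases, NF-kB subunits and brakes, 8 rose and 1 fell, with a median of 0.12. These are 47.1% and 5.88%, beside 8.44% and 10.9% of all fitted genes. With no filter 8 rose and 0 fell. Of the 8, Tnip3 was fitted only through CFLARs Tg. The largest rises were in Tnip3, Nfkbia and Tnfaip3, genes that restrain the pathway. Tnip3 read 8.45 and 9.49 in CFLARs Tg and 6.30 and 6.58 in wild-type, within the range of background. Set against the top of that range it was at least 4.57-fold higher in CFLARs Tg. Nfkbia, the gene of the inhibitor IkB alpha, rose by 1.56 and Tnfaip3, the gene of the ubiquitin-editing enzyme A20, by 1.32. The subunit gene Nfkb2 followed with 0.84 (limma adjusted p of these 4 genes from 0.00417 to 0.0231). Other brakes rose less than Nfkb2, Nfkbie by 0.46 and Nfkbib by 0.37, and Tnip1 did not pass (difference 0.04). The gene that fell was Tab1, by 0.26. Of 5 genes of ligand shedding 1 rose, or 20%, beside 8.44% of all fitted genes. It was Rhbdf2, whose product brings the TNF-releasing protease ADAM17 to the cell surface, and the rise was 0.33. Adam17 itself differed by 0.07 (limma adjusted p = 0.591). Of 10 fitted genes known to respond to TNF, 8 rose, or 80%, beside 8.44% of all fitted genes. Their median was 1.07, against -0.01 for all fitted genes. Of the 10, 3 were fitted only through CFLARs Tg, and without them 6 of 7 rose. Cxcl2 read 10.39 and 11.27 in CFLARs Tg and 6.38 and 6.47 in wild-type, within the range of background, and against the top of that range it was at least 16.5-fold higher in CFLARs Tg. Ccl20 rose by 3.09, Ccl2 by 1.65 and Icam1 by 1.503. The medians of both lists were the same with Tnip3 and Cxcl2 at these bounds. These genes also respond to other signals.

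**Figure D5:**
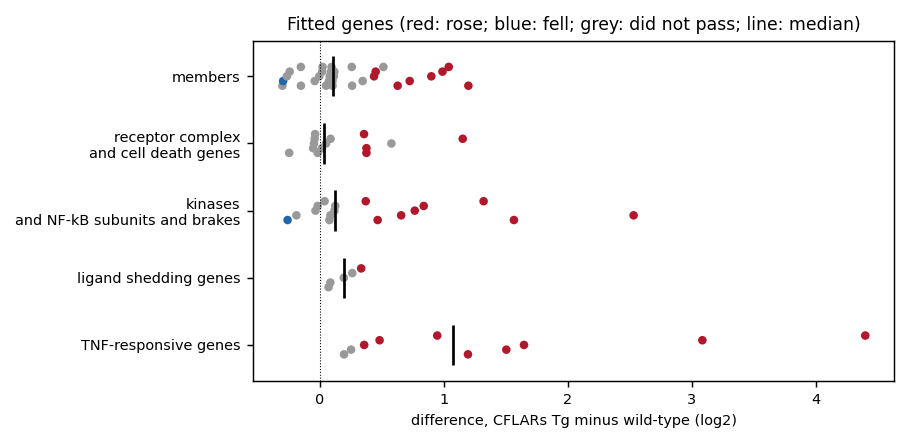
Difference between CFLARs Tg and wild-type (log2, x axis) of the fitted members and of the fitted genes of 4 lists, 1 point per gene, with the list's median as a line. The medians were 0.10 for the 31 fitted members, 0.03, 0.12 and 0.19 for the receptor complex, the kinases and NF-kB genes and the shedding genes, and 1.07 for the TNF-responsive genes; Tnip3 and Cxcl2 are drawn at their measured differences, although wild-type lay within background.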

How the data were processed

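The table deposited by the authors gives log2 expression of 28856 probe sets on each of 4 arrays (2 of each genotype). Per the labels' protocols, biotinylated cRNA was made from total RNA for Affymetrix arrays. The sources used here do not say how the signals were summarised and normalized. The deposited log2 values ran from 4.33 to 14.55, with array medians of 8.31 to 8.33, and were used as they stand. Depth does not apply to arrays, and their number limits the precision.

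Names came from the platform annotation: 21789 probe sets had 1 symbol, 1621 had several and 5446 had none. The probe set with the highest mean represented each of 19938 genes. Birc2 was the 1 member with more than 1 probe set, and its other probe set also differed by -0.04. The 30% of genes with the lowest means (under 7.48) were left out. CFLARs Tg was compared with wild-type over 13956 genes with lmFit and eBayes of limma 3.58.1 in R 4.3.3, without covariates (2 residual and 2.64 prior degrees of freedom), with Benjamini-Hochberg adjustment over all fitted genes and a threshold of 0.05. Differences are CFLARs Tg minus wild-type, with the moderated standard error (SE) and 95% intervals. The fit was tested on simulated data with 200 of 19938 genes changed. That is fewer than the 2695 genes called here, so this test does not measure the error rate in these data.

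The members and lists were chosen with earlier results of these data known. Members past the threshold, the next 5 by size of difference and 16 fixed genes are given with all 4 arrays, and of the pathway lists up to 4 called genes. Alternatives were quantile normalization, median centring, 2 other filters, the median of a gene's probe sets, an intensity trend, title type as a replicate block, and leaving out each array.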

Additional observations from a re-analysis of the deposited data

Results flagged for a closer look

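In 4 of the 31 fitted members the differences in the 2 title types had opposite signs, and no difference between title types was tested. The share of all fitted genes with opposite signs was not counted, so this number is a description only. Tnfsf10 differed by 0.15 between the XCFX and XX arrays and by -0.69 between the XCFY and XY arrays. For Tnfrsf4 these differences were 0.199 (XCFX minus XX) and -0.160 (XCFY minus XY), for Traf2 0.23 and -0.091, and for Tnfrsf18 0.023 and -0.036. Those of Tnfrsf18 were smaller in size than the SD between arrays of a genotype (0.231 in CFLARs Tg, 0.125 in wild-type). Each pair holds 1 array of each genotype.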

How the results depend on the processing

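The 8 members that rose were the same after quantile normalization, after median centring, without a filter, with the median of probe sets and with an intensity trend. With the lowest 50% of genes left out 19 members were fitted and 5 rose, since Tnf, Tnfsf15 and Tnfsf13b then lay below the filter. With title type as a replicate block the same 8 rose, Tnfrsf11a was lost (adjusted p = 0.0511) and Tnfrsf19 was called (adjusted p = 0.0467). The title types do not pair the arrays: over 13534 autosomal genes the XY minus XX differences of the 2 genotypes had a correlation of 0.014. Leaving out 1 array at a time moved the number of members called higher between 0 and 13 and called lower between 0 and 6, all genes called between 40 and 6559, and the median difference of the fitted members between 0.095 and 0.181, with 12 and 13 called higher without CFLARs Tg replicates 1 and 2. The 9 called members kept their direction under every alternative that fitted them. Leaving out 1 array could not turn them, because their groups did not overlap. Of the other 22, 8 turned when 1 array was left out, and in these 8 the groups overlapped. Over all alternatives Traf2 ran from -0.038 to 0.181, Birc2 from -0.114 to 0.028, Tnfsf10 from -0.728 to 0.192, Fas from -0.045 to 0.274, Tnfrsf4 from -0.161 to 0.200, Tnfrsf13c from -0.029 to 0.185, Tnfrsf13b from -0.061 to 0.095 and Tnfrsf18 from -0.025 to 0.012. Tnfrsf18 also turned with median centring (0.0047). Calls beyond the main ones came only from the fits with 1 CFLARs Tg array and from the block. Readings near background limit what can be seen of the low members, of which 7 had both group means within its range.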
